A study of Homo sapiens with 4 samples.

Results

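The myosin motors and formins described here are 36 genes chosen by name, with earlier results of these data known. A probe set belonged to them if the platform annotation gave it exactly 1 of those names. The rule found 99 of the 54675 probe sets of the array, and they cover 35 of the 36 genes. MYO18A has no probe set of its own name alone and was not analysed here. The members are 17 unconventional myosins, 7 genes of non-muscle myosin II with its light chains and the kinase MYLK, and 12 formins. They were measured in SCP2, a bone-seeking human breast cancer subline, on 1 array for each of 4 groups. The groups were vector control cells without treatment, vector control cells treated with TGFbeta, DLC1 overexpression cells without treatment, and DLC1 overexpression cells treated with TGFbeta. The dose and time of TGFbeta, and whether the overexpression cells are 1 clone or a pool, are not given in the sources at hand.

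Myosins are motors that walk along or pull on actin filaments, using the energy of ATP. Myosin II assembles into bipolar filaments whose contraction is switched on when its regulatory light chain is phosphorylated, by MYLK among other kinases. Unconventional myosins carry membranes and cargo or tether actin to membranes, and MYO10 is known for building filopodia. Formins sit at the growing end of actin filaments and elongate unbranched ones, and several of them are held in a self-inhibited state until activated. DLC1 is a GTPase-activating protein, and TGFbeta is known to reorganise the actin cytoskeleton of epithelial and cancer cells.

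Each gene is shown by whichever of its probe sets had the highest mean intensity, here called its representing set. A gene was kept if the representing set reached 0.38, the median of all values, on any array. Intensities are in arbitrary units and can be compared between arrays for 1 probe set, not between probe sets. Of the 35 measured members, 31 were kept: 12 unconventional myosins, all 7 genes of the myosin II group and all 12 formins. Every kept member read at least 0.49 on all 4 arrays, so none passed the filter through its high arrays alone. MYO1D, MYO1G, MYO7A and MYO15A stayed below the filter, with no value above 0.35. The groups of genes below are described by these representing sets. Differences are log2 ratios of 2 arrays, and "rose" or "fell" is used only of a difference of at least 2-fold. With 1 array a group no difference has a replicate check, no test was run, and no p-value is given. For some genes both vector arrays are said to lie above both DLC1-labelled ones. The 2 arrays of a background differ in treatment and are not replicates. The share of all genes with this order was not counted, so the order describes the values only. In bulk RNA, fewer cells that express a gene and less RNA per cell cannot be told apart.

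Of the facts that touch all comparisons, the transcript of DLC1 does not settle the labels: probe set 210762_s_at read 1.77, 2.51, 3.38 and 3.64 in the vector, vector with TGFbeta, DLC1 and DLC1 with TGFbeta arrays, whereas 224822_at read 1.79, 2.41, 1.44 and 1.69. The last 2 arrays are therefore named by their label, as the DLC1-labelled pair, beside the vector pair. All 8 markers of a basal and mesenchymal breast cancer line were kept, with summed intensities of 447, 503, 382 and 442 in the same order of arrays. Among them KRT14, at 0.21, 0.63, 0.15 and 0.41, passed the filter through the arrays with TGFbeta alone. The median difference of this list was 0.15 and 0.22 with TGFbeta and -0.28 and -0.21 against vector. Of 9 luminal markers, summing to between 92.7 and 101, CDH1 and PGR were below the filter. Of 7 measured leukocyte markers 4 were kept and PTPRC, CD3E and CORO1A were not, and the summed intensity of the list was 9.85, 9.28, 12 and 10.8 in the same order of arrays. The muscle list summed to between 1.78 and 2 and the endothelial and stromal list to between 2.24 and 2.33. Control probe sets for the 5′ and 3′ ends of beta-actin differed by 0.82 and 0.39 with TGFbeta on the vector pair and by 0.27 and 0.18 on the DLC1-labelled pair. Those of GAPDH differed by 0.07 and 0.05 on the vector pair and by -0.03 and 0.01 on the DLC1-labelled pair. Those of ribosomal RNA were higher by 0.43 to 0.85 in the DLC1-labelled array without TGFbeta and by 0.07 to 0.35 with it. With TGFbeta they differed by 0.33 to 0.39 on the vector pair and by -0.22 to 0.02 on the DLC1-labelled pair. The part of these in the differences below was not tested.

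With TGFbeta, MYO10 and the formin DAAM1 rose on both pairs of arrays, and no kept member fell on either. Comparing DLC1-labelled with vector arrays, no member rose. MYO10, DAAM1, FMNL3 and DIAPH3 fell both without and with TGFbeta, and FHOD3 and MYH10 fell without it and were at -0.91 and -0.85 with it. The 2 members that rose with TGFbeta on the vector pair are 6.45% of the 31 kept, where 1.21% of 13137 kept genes rose, and 0.693% fell. They are the same 2 on the DLC1-labelled pair, where 0.792% of all genes rose and 0.107% fell, and 0.624% of all genes rose on both. Against vector, the 6 members that fell without TGFbeta are 19.4% of those kept, against 2.34% of all genes, and the 4 that fell with TGFbeta are 12.9%, against 1.64%. The 4 that fell in both states stand beside 1.13% of all genes. The count without TGFbeta rests on the representing sets: averaged over its kept probe sets, 1 member fell, or 3.23%, against 1.91% of all genes, and 3 fell with TGFbeta, or 9.68%, against 1.51%. With arrays centred on housekeeping genes 3 fell without TGFbeta, or 9.68%, against 1.86%. The genes that rose in these last comparisons were 1.63% and 1.46% of all, with no member among them.

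At the lower line of 1.5-fold, 4 members were higher with TGFbeta in each background, the same 4 in both: MYO10, DAAM1, FMNL3 and FHOD3. Of all genes, 3.15% passed this line upward on the vector pair, 2.31% on the DLC1-labelled pair and 1.7% on both. MYLK was the single member lower, on the vector pair, where 2.91% of all genes were, and there was none on the DLC1-labelled pair, where 1.06% were. Against vector, 10 members were lower without TGFbeta and 8 with it, and 7 were lower in both states, where 8.89%, 6.71% and 5.04% of all genes were. Upward, MYO1F alone passed 1.5-fold, with TGFbeta, where 5.91% of all genes did, and no member did without TGFbeta, where 5.84% did. The TGFbeta differences in the 2 backgrounds share no array, and neither do the DLC1 differences in the 2 states, but each TGFbeta difference shares an array with each DLC1 difference.

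The typical member moved little. The median difference of the kept members with TGFbeta was 0.01 on the vector pair and 0.05 on the DLC1-labelled pair, beside -0.03 and -0.01 for all genes. Against vector it was -0.23 without TGFbeta and -0.19 with it, beside -0.03 and -0.02. Of the 31 members, 22 lay below 0 without TGFbeta and 24 with it, against 53.5% and 52% of all genes, and 18 in both states, against 42.7%. Formins had medians of -0.43 and -0.52 and 9 and 11 of 12 below 0, unconventional myosins medians of -0.15 and -0.19 with 9 of 12 below 0 in each state. Centring the arrays on housekeeping genes moved the median of all genes by -0.10 and -0.18 for TGFbeta in the vector and DLC1-labelled arrays and by 0.08 for DLC1 without TGFbeta. The members' median for TGFbeta on the DLC1-labelled pair then became -0.13. Against vector, formins then had medians of -0.34 and -0.51, and unconventional myosins split 6 to 6 without TGFbeta. Averaged over kept probe sets, the formin medians were -0.29 and -0.19, with 10 and 12 of 12 below 0, and averaged over all sets -0.20 in each state.

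**Figure D1:**
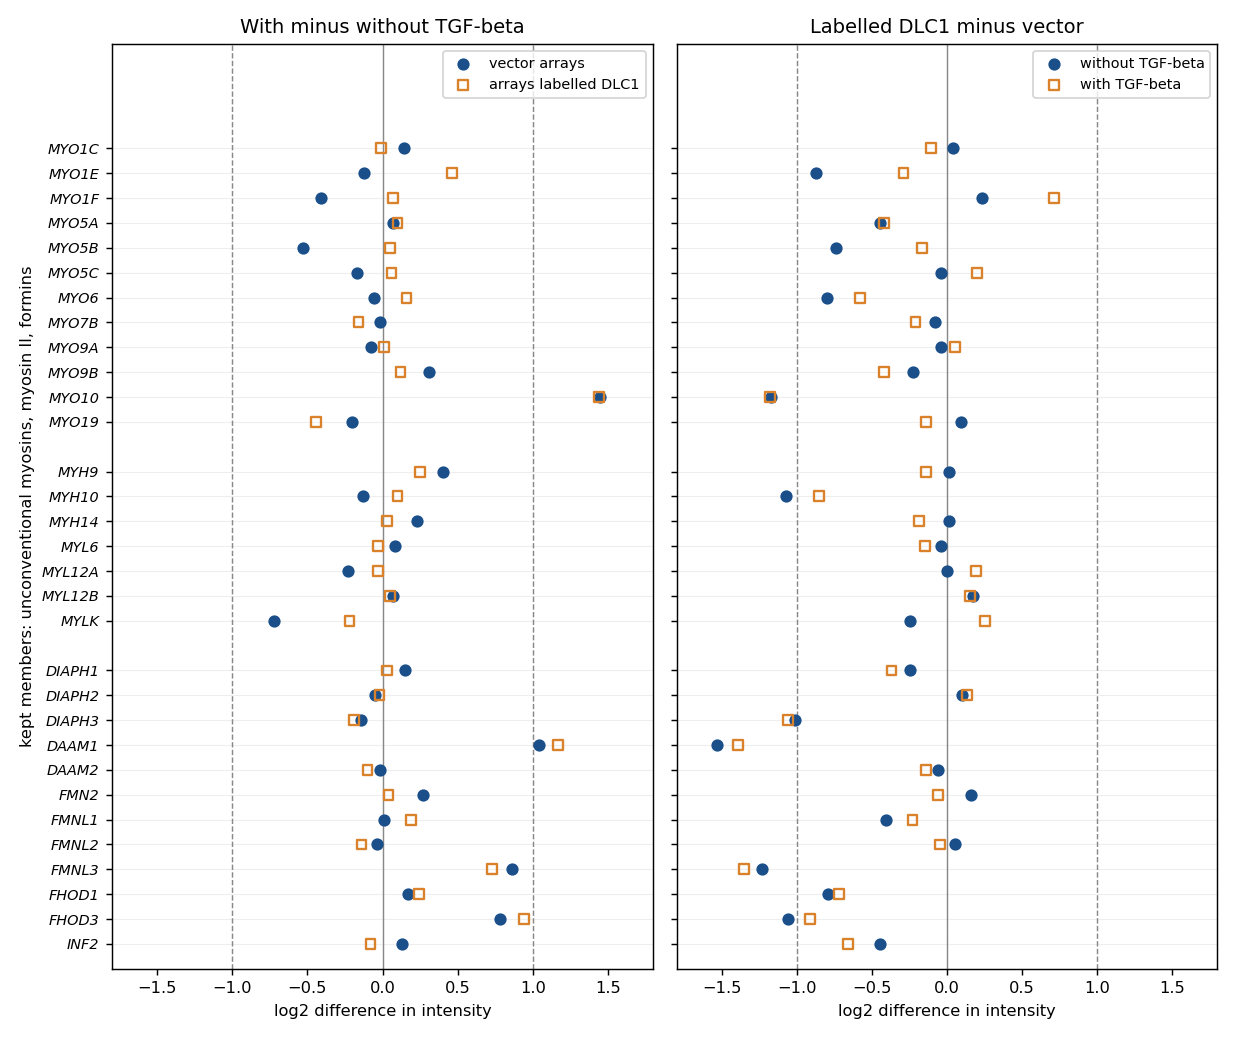
Log2 difference in intensity of the 31 kept members, by group of genes, with minus without TGFbeta (left) and DLC1-labelled minus vector (right); each point compares 2 arrays, the dashed lines mark 2-fold, and there is no error bar because each group has 1 array. MYO10 and DAAM1 lie beyond 2-fold to the right in the left panel and, with FMNL3 and DIAPH3, beyond 2-fold to the left at both points of the right panel.

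Among the unconventional myosins, MYO10, the motor of filopodial tips, moved most. Its intensity on the vector pair was 18.15 without and 49.71 with TGFbeta, and on the DLC1-labelled pair 8.07 and 21.88. The array with TGFbeta was the higher of each pair, and each DLC1-labelled array was below the vector array of the same treatment. The DLC1-labelled array with TGFbeta lay near untreated vector, at a difference of 0.27. MYO10 rose 2.74-fold with TGFbeta on the vector pair, and 66 of the 13137 kept genes had a higher difference. In the DLC1-labelled arrays it rose 2.71-fold, with 39 genes higher. Against vector it fell by 1.17 on the log2 scale without TGFbeta and by 1.18 with it, with 185 and 134 genes lower. The 2 TGFbeta responses differed by -0.01 in this set, and in the other 4 the response on the DLC1-labelled pair was the smaller, by -0.22 to -0.65.

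The gene has 5 probe sets, all kept, and all of them were at least 2-fold higher with TGFbeta in each background. Their differences ran from 1.45 to 1.82 on the vector pair and from 1.12 to 1.44 on the DLC1-labelled pair. For DLC1 against vector they spread more widely. Without TGFbeta 201976_s_at gave -1.17, 236718_at -1.0, 244350_at -0.84, 216222_s_at -0.82 and 1554026_a_at -0.22, and the mean of the sets, -0.81, does not reach 2-fold. With TGFbeta they ran from -0.67 to -1.49. As a scale for such spread, the 2 brightest kept probe sets of a gene differed by a median of 0.19 and a 90th percentile of 0.58 without TGFbeta, over 6388 genes, and by 0.16 and 0.52 with it. For the TGFbeta differences those gaps were 0.13 and 0.36 on the vector pair and 0.10 and 0.31 on the DLC1-labelled pair.

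MYO6, the motor that moves toward the minus end of actin filaments and works in endocytosis, read 15.22 and 14.63 on the vector pair without and with TGFbeta, and 8.76 and 9.77 on the DLC1-labelled pair. Both vector arrays were above both DLC1-labelled arrays. The differences of -0.80 without TGFbeta and -0.58 with it stayed within 2-fold. Its other kept sets gave smaller ones without TGFbeta, -0.13 for 203215_s_at and -0.26 for 210480_s_at, and -0.62 and -0.24 with it.

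MYO1E, a membrane-binding class I myosin of endocytic sites, read 1.13 and 1.04 on the vector pair and 0.62 and 0.85 on the DLC1-labelled pair. The lowest value was that of the DLC1-labelled array without TGFbeta, at -0.87 against vector, and the difference narrowed to -0.29 with TGFbeta. MYO5B, which carries recycling endosomes, read 1.44 and 1.0 on the vector pair and 0.86 and 0.89 on the DLC1-labelled pair. Here the untreated vector array stood above the other 3, with differences of -0.74 without TGFbeta and -0.17 with it. Its other 2 probe sets were below the filter.

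MYO1F, a class I myosin known mainly from leukocytes, read 0.65 and 0.49 on the vector pair and 0.76 and 0.80 on the DLC1-labelled pair. Both DLC1-labelled arrays were higher, by 0.23 without TGFbeta and by 0.71 with it. The leukocyte marker list summed higher in the same arrays, as given above, with PTPRC below the filter in all 4. Its median against vector was only 0.06 without TGFbeta and 0.03 with it. ITGB2 was higher by 0.71 and 0.52 and LCP1 by 0.16 in each state, while CD14 was at -0.16 and -0.10 and CD53 at -0.03 and -0.09. The part of leukocyte markers in the MYO1F difference was not tested. The leukocyte myosin MYO1G did not pass the filter.

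The other 7 kept unconventional myosins stayed within 1.5-fold in all 4 comparisons in their representing sets. They are the membrane motor MYO1C, the vesicle carriers MYO5A and MYO5C, MYO7B of brush border microvilli, MYO9A and MYO9B, which carry a GTPase-activating domain of their own, and the mitochondrial motor MYO19. MYO5A lay at -0.45 and -0.42 against vector, from 6.32 and 6.65 to 4.63 and 4.96, and its set 204527_at gave -0.47 and -0.63. Its dim set 241966_at passed the filter on the vector array with TGFbeta alone, at 0.48, and read 0.32 or less on the others. It gave -0.09 and -0.63 against vector, and 0.58 with TGFbeta on the vector pair. The brightest set of MYO19 gave -0.20 and -0.44 with TGFbeta, but 0.09 and -0.14 against vector, where 236022_at gave 0.60 and 0.02 and 219320_at -0.68 and -0.53. The probe sets of MYO19 thus parted in direction without TGFbeta.

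**Figure D2:**
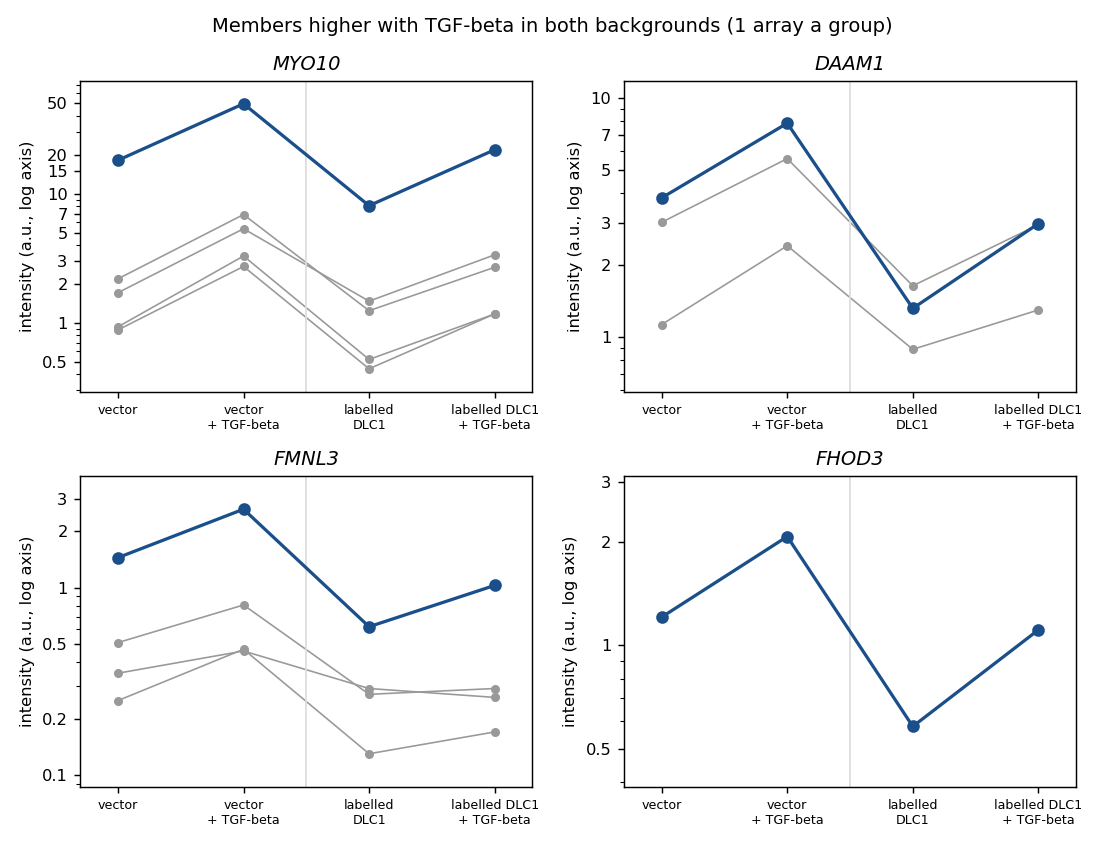
Intensity in arbitrary units (log axis) of MYO10, DAAM1, FMNL3 and FHOD3 on the 4 arrays, with the probe set that represents the gene in blue and its other kept probe sets in grey. In all 4 blue lines the vector array with TGFbeta is highest and the untreated DLC1-labelled array is lowest, from 49.71 to 8.07 for MYO10.

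Of the myosin II heavy chains, which form the contractile filament, MYH10 was lower on the DLC1-labelled pair, and MYH9 and MYH14 were within 1.5-fold in all 4 comparisons. MYH10 read 13.51 and 12.34 on the vector pair without and with TGFbeta, and 6.42 and 6.86 on the DLC1-labelled pair. Both vector arrays lay above both others, and TGFbeta moved it by only -0.13 and 0.10. It fell by 1.07 without TGFbeta, or by 0.99 with arrays centred on housekeeping genes, which is just short of 2-fold. With TGFbeta the difference was -0.85. Its other set, 213067_at, read 1.02, 1.23, 0.60 and 0.56 in the order vector, vector with TGFbeta, DLC1 and DLC1 with TGFbeta, a difference of -0.77 without TGFbeta and -1.14 with it.

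MYH9, a heavy chain found in most cells, read 7.62 and 10.03 on the vector pair and 7.69 and 9.13 on the DLC1-labelled pair. The array with TGFbeta was higher in each background, by 0.40 and 0.25, and the differences against vector were 0.01 and -0.14. MYH14, with a representing set of 1.11, 1.3, 1.12 and 1.14, showed no difference over 0.23 in size, and its 4 other kept sets none over 0.39.

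The light chains were close to level. MYL6, the essential light chain, read 101.15 and 107.19 on the vector pair and 98.44 and 96.71 on the DLC1-labelled pair. MYL12B, a regulatory light chain, read 98.29 and 103.05, then 110.50 and 114.61, so the DLC1-labelled arrays were higher by 0.17 and 0.15. MYL12A, its near-identical neighbour, read 61.67 and 52.47, then 61.46 and 60.03. A further probe set that the annotation gives to both regulatory light chains, 201318_s_at, read between 110.04 and 118.03, and since these transcripts are near-identical, the values of both genes are uncertain. The dimmer sets of MYL12A, 1555976_s_at and 1555978_s_at, were each at -0.26 against vector without TGFbeta, while 1555977_at was at 0.20.

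MYLK, the kinase that phosphorylates the regulatory light chain, was the one member lower by over 1.5-fold with TGFbeta. It read 8.17 in the vector array and 4.96 with TGFbeta, then 6.86 and 5.89 on the DLC1-labelled pair. The untreated array was the higher of each pair, with differences of -0.72 on the vector pair and -0.22 on the DLC1-labelled pair. The set 202555_s_at gave nearly the same values, -0.78 and -0.22. Against vector, MYLK was at -0.25 without TGFbeta and at 0.25 with it. The difference between its 2 TGFbeta responses, 0.50, stayed under 1.5-fold.

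**Figure D3:**
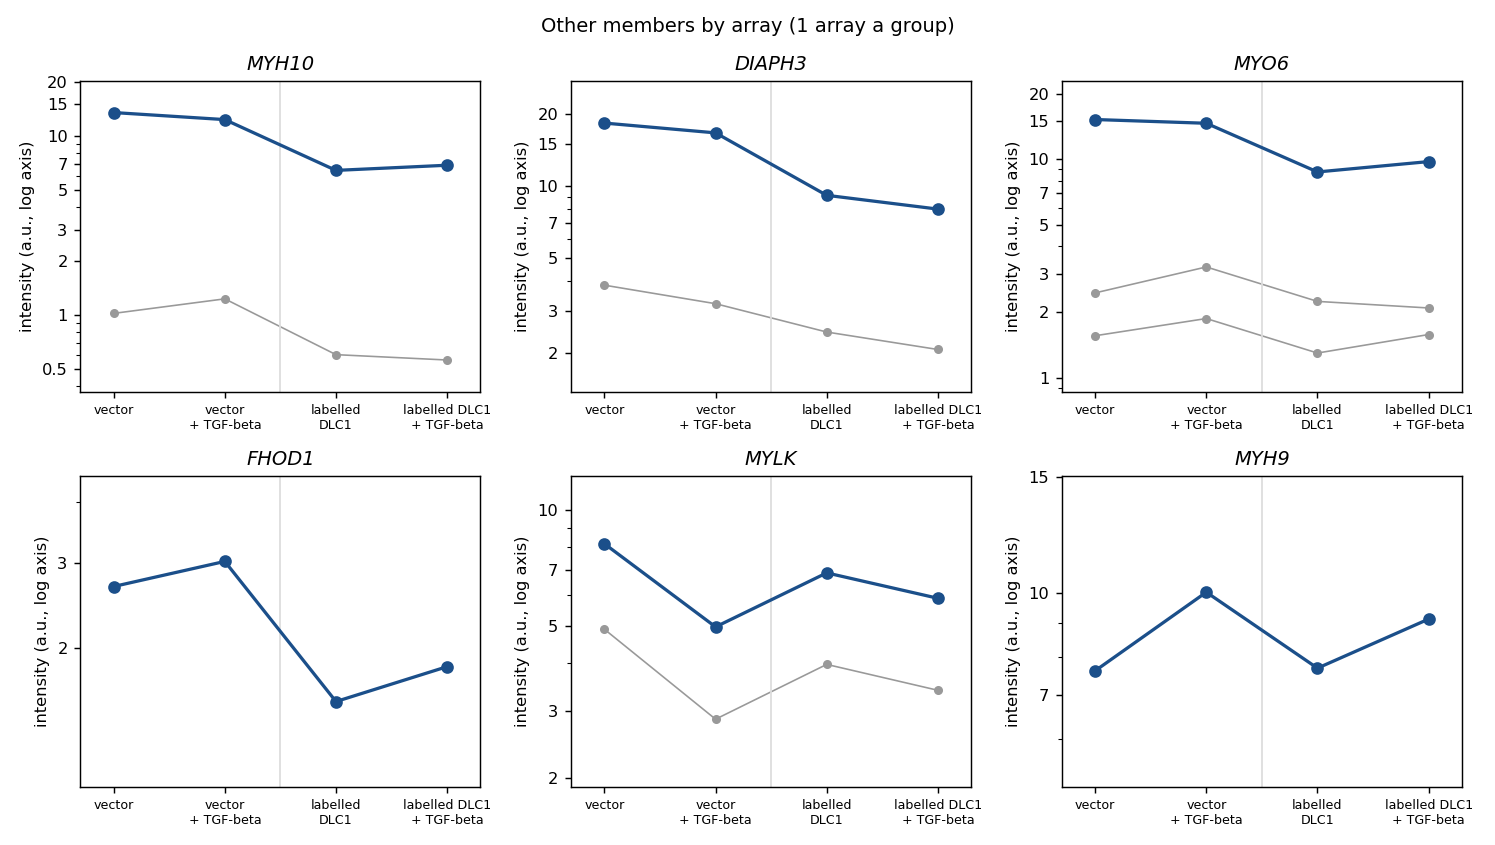
Intensity in arbitrary units (log axis) of MYH10, DIAPH3, MYO6, FHOD1, MYLK and MYH9 on the 4 arrays, with the representing probe set in blue and other kept sets in grey. The first 4 genes read lower on both DLC1-labelled arrays than in both vector arrays in the blue set, for MYH10 13.51 and 12.34 against 6.42 and 6.86, MYLK is lowest in the vector array with TGFbeta at 4.96, and MYH9 is higher with TGFbeta in each background.

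Formins, 12 of the 31 kept members, were 4 of the 6 that fell against vector without TGFbeta and 3 of the 4 that fell with it. That is 33.3% and 25% of the formins, against 2.34% and 1.64% of all genes. These counts rest on the representing sets. Averaged over kept probe sets, FHOD3 alone fell without TGFbeta, and DAAM1, FMNL3 and MYO10 fell with it. DAAM1, a formin that acts downstream of Wnt and Dishevelled in planar cell polarity, read 3.82 on the vector array and 7.83 with TGFbeta, then 1.32 and 2.98 on the DLC1-labelled pair. Both vector arrays were above both DLC1-labelled ones. It rose 2.05-fold with TGFbeta on the vector pair and 2.26-fold on the DLC1-labelled pair, with 145 and 67 genes higher. Against vector it fell by 1.53 without TGFbeta and by 1.39 with it, and 66 and 70 of all kept genes were lower. Centring on housekeeping genes put the TGFbeta differences at 0.94 and 0.99, just under 2-fold. The set 226666_at gave 0.88 and 0.85 with TGFbeta and -0.88 and -0.92 against vector, and 1555989_at gave 1.09 and 0.55, then -0.34 and -0.89. The direction was therefore shared by the 3 kept sets and the size was not. Its remaining 2 sets were below the filter.

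FMNL3, a formin of filopodia and of endothelial and cancer cell protrusions, read 1.45 and 2.63 on the vector pair and 0.62 and 1.03 on the DLC1-labelled pair. Both vector arrays were above both DLC1-labelled ones, and the array with TGFbeta was the higher of each pair. The TGFbeta differences were 0.86 and 0.73. Against vector FMNL3 fell by 1.23 and 1.35, with 151 and 81 genes lower. Its 3 dimmer kept sets, which lie under the filter value on both DLC1-labelled arrays, ran from -0.27 to -0.94 without TGFbeta and from -0.82 to -1.48 with it. With TGFbeta on the DLC1-labelled pair they gave 0.10, -0.16 and 0.39, so the mean of all kept sets there was 0.27, well under the 0.73 of the brightest.

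FHOD3, a formin best known for sarcomere assembly in heart muscle, read 1.21 and 2.08 on the vector pair and 0.58 and 1.11 on the DLC1-labelled pair, from a single probe set. Its order over the arrays was that of DAAM1 and FMNL3, with both vector arrays above both others. The TGFbeta differences were 0.78 and 0.94. Against vector it fell by 1.06 without TGFbeta, or by 0.97 with arrays centred on housekeeping genes, and the difference with TGFbeta was -0.91. The muscle markers other than DES and MYOD1 were below the filter in all arrays.

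FHOD1, its relative that bundles actin stress fibres, read 2.68 and 3.02 on the vector pair and 1.55 and 1.83 on the DLC1-labelled pair. Both vector arrays were higher, with differences of -0.79 and -0.72, and TGFbeta moved it by 0.17 and 0.24.

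The diaphanous formins parted among themselves. DIAPH3 read 18.39 and 16.73 on the vector pair and 9.16 and 8.02 on the DLC1-labelled pair, and TGFbeta moved it by -0.14 and -0.19. Against vector it fell by 1.01 without TGFbeta and by 1.06 with it, and the first became -0.92, not past 2-fold, when arrays were centred on housekeeping genes. With cyclic loess it was just short of 2-fold. The set 232596_at gave -0.65 and -0.64. Its dim set 220997_s_at read 0.08, 0.07, 0.16 and 0.19, below the filter and in the opposite direction, and an average over all 3 sets was -0.22 and -0.09.

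DIAPH1 read 14.86 and 16.48 on the vector pair and 12.50 and 12.78 on the DLC1-labelled pair, at -0.25 and -0.37 against vector. Its sets 213514_s_at and 215541_s_at gave -0.04 and -0.22 without TGFbeta and -0.02 and -0.07 with it. DIAPH2 read 3.49 and 3.37, then 3.74 and 3.69, a difference of 0.10 and 0.13 against vector, and 205603_s_at gave -0.37 and -0.38.

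INF2, a formin that both polymerises and severs filaments, read 2.37 and 2.60 on the vector pair and 1.73 and 1.64 on the DLC1-labelled pair, at -0.45 and -0.66 against vector. Its other kept sets went the other way, with 0.04 and 0.25 for 218144_s_at and 0.31 and 0.04 for 222534_s_at, so the transcript has no settled direction here. DAAM2, FMN2, FMNL1 and FMNL2 stayed within 1.5-fold in all comparisons. FMNL2, the closest relative of FMNL3, read 16.14 and 15.68 on the vector pair and 16.70 and 15.12 on the DLC1-labelled pair, with no difference over 0.14 in size. Its dimmer kept set, 242665_at, gave 0.02 and -0.40 with TGFbeta and 0.45 and 0.02 against vector. FMNL1, a leukocyte formin, read 1.02 and 1.03 on the vector pair and 0.77 and 0.88 on the DLC1-labelled pair. Over the 13 members not past 1.5-fold and not among those followed in any case, differences with TGFbeta ran from -0.20 to 0.31 on the vector pair and from -0.44 to 0.19 on the DLC1-labelled pair, and against vector from -0.45 to 0.16 and from -0.42 to 0.20.

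**Figure D4:**
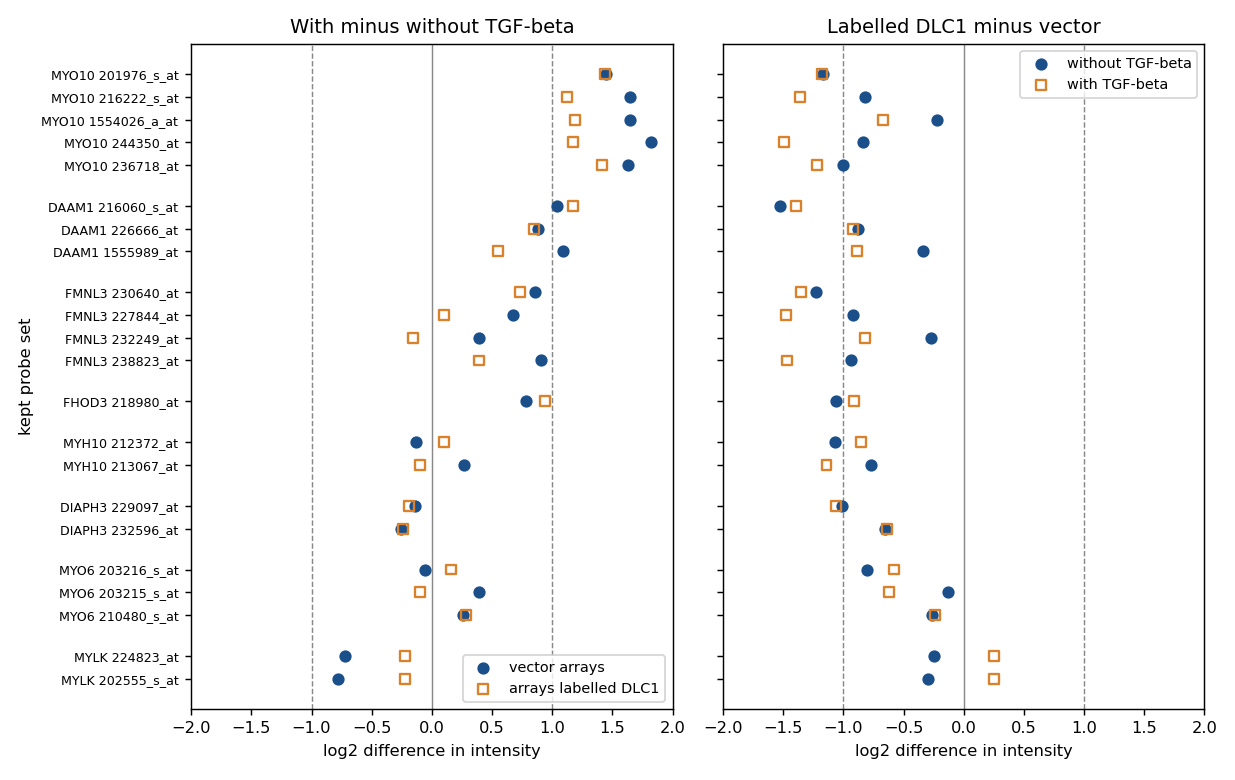
Log2 difference of each kept probe set of 8 members, with minus without TGFbeta (left) and DLC1-labelled minus vector (right); each point compares 2 arrays and the dashed lines mark 2-fold. All 5 sets of MYO10 lie past 2-fold in the left panel, while in the right panel the sets of MYO10, DAAM1 and FMNL3 lie below 0 with sizes that spread, from -0.22 to -1.17 for MYO10 without TGFbeta.

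The sequences before the start sites are shown for the 4 members that passed 1.5-fold upward with TGFbeta in both backgrounds and for MYLK, the one that passed it downward. They are the 250 bases before an annotated start, from RefSeq on GRCh38.p14, written along the gene's strand. MYO10 lies at chr5:16936289-16936538 on the minus strand, DAAM1 at chr14:59188417-59188666 on the plus strand and FMNL3 at chr12:49707406-49707655 on the minus strand. FHOD3 lies at chr18:36297463-36297712 on the plus strand and MYLK at chr3:123620549-123620798 on the minus strand. Whether the start shown for MYLK is that of the full-length kinase or of a shorter product was not examined. Capitals mark matches to the SMAD half-site CAGAC or to the CArG box, the site of SRF, on either strand.
MYO10: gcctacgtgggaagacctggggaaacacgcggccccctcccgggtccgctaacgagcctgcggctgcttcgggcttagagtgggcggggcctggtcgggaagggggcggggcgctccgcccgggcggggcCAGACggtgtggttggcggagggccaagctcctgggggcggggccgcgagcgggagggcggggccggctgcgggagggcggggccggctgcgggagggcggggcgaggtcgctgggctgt
DAAM1: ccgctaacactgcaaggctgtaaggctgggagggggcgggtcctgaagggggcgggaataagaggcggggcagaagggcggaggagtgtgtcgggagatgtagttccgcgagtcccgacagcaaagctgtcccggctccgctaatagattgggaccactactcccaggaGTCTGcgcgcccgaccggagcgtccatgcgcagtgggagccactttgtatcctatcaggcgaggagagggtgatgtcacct
FMNL3: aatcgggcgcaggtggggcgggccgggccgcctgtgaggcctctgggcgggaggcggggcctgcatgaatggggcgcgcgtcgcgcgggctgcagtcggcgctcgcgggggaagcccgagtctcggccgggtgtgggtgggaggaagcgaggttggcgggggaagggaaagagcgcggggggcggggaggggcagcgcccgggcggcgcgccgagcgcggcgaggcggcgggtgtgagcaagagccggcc
FHOD3: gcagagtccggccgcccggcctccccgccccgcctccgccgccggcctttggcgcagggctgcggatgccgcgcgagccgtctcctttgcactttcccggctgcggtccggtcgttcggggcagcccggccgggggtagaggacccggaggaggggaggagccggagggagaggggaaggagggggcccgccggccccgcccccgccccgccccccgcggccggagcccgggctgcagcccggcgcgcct
MYLK: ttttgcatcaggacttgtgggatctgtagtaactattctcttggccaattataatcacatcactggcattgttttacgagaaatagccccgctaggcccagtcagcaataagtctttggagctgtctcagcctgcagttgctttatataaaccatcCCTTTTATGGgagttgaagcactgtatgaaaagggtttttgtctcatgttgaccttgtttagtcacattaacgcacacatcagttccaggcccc
A further annotated start of DAAM1, not printed, has CAGAC 68 bases before it. In the printed windows CAGAC occurs once in MYO10, 120 bases before the start, and once in DAAM1, on the other strand and 81 bases before it, and not in these windows of FMNL3, FHOD3 or MYLK. It is a short motif that 38.0% of 35116 promoter windows of this length hold. The CArG box occurs in 1.16% of those windows, and among the 35 members with a window in MYLK, 94 bases before the start, and in MYO1E, 31 bases before it. The AP-1 motif TGANTCA, held by 6.57% of all windows, and the TEAD motif GGAATG, held by 11.9%, were found in none of the 5 windows printed. No window printed holds more than 1 match. The windows of MYO10, FMNL3 and FHOD3 are rich in G and C, at 78.8%, 79.2% and 81.6%, those of DAAM1 and MYLK hold 62.8% and 43.2%, and the median of all windows is 58.0%. A match describes the letters only.

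How far the 2 TGFbeta responses of a member differed was the last comparison. In its representing set, none of the 31 members differed by 1.5-fold or more between the backgrounds, where 3.08% of all genes did, and 0.365% of all genes differed by 2-fold. The differences nearest to that line were 0.58 for MYO5B, 0.57 for MYO1E, 0.50 for MYLK and 0.48 for MYO1F. In each of these the vector array was lower with TGFbeta, and the DLC1-labelled array was higher or less low. For DAAM1, FMNL3 and FHOD3 the difference between responses was 0.14, -0.13 and 0.15 in the representing sets. The other kept sets of DAAM1 gave -0.04 and -0.55 and those of FMNL3 -0.52 to -0.56, a smaller response on the DLC1-labelled pair. Set against untreated vector, the DLC1-labelled array with TGFbeta was at -0.36 for DAAM1, -0.49 for FMNL3 and -0.12 for FHOD3, and at -0.98 for MYH10 and -1.20 for DIAPH3.

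The genes around these motors were taken from lists drawn up by function, with earlier results of these data known. As a scale for the counts in these lists, 0.792% to 1.63% of all genes rose and 0.107% to 2.34% fell over the 4 comparisons. Of 27 kept genes for small GTPases, their effectors and the myosin phosphatase, RHOB, a short-lived small GTPase of endosomes, rose on the vector pair, from 0.65 to 2.4, and none fell in any comparison. In the DLC1-labelled arrays RHOB read 0.88 and 1.45. At 1.5-fold, 1 gene of the list was lower against vector without TGFbeta and 2 with it, RHOB among the latter at -0.73, and none was higher. PPP1R14B, of a family of phosphatase inhibitors, was higher with TGFbeta by 0.73 and 0.58. Medians over the list were 0.10, 0.02, 0.05 and -0.16 in the order of TGFbeta on the vector pair, TGFbeta on the DLC1-labelled pair, and DLC1 against vector without and with TGFbeta.

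Of 20 kept genes for other actin nucleators and profilins, none passed 1.5-fold with TGFbeta. At that line 3.15% and 2.31% of all genes were higher on the vector and DLC1-labelled pairs, and 2.91% and 1.06% lower. A count of 0 among 20 is not far from those shares. JMY, which nucleates filaments on its own and through the branching complex, rose against vector, from 5.10 to 10.24 without TGFbeta and from 5.67 to 11.57 with it, at 1.01 and 1.03, while its set 241985_at gave 0.34 and 0.58. SPIRE1, a nucleator that works with formins of the FMN class, was higher by 0.71 and 0.56 in its brightest set and by 0.57 to 1.10 in its other 3. COBLL1, a relative of the nucleator COBL, was lower against vector, at -0.77 and -0.67. It passed the filter through the vector arrays alone, at 0.46 and 0.59, and read 0.27 and 0.37 on the DLC1-labelled pair. PFN2, a profilin that supplies actin monomers, was at -0.44 and -0.19 against vector. Medians over the list against vector were 0 and 0.06, and none of its genes fell by 2-fold.

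Of 23 kept genes for motor adaptors, cargo and filament-coating proteins, the tropomyosin TPM1 rose with TGFbeta, from 31.61 to 79.25 on the vector pair and from 25.83 to 55.62 on the DLC1-labelled pair. Its other kept sets gave 0.63 to 1.89 on the vector pair and 0.87 to 1.29 on the DLC1-labelled pair. RAB27B, a vesicle GTPase whose relative RAB27A recruits MYO5A, was lower with TGFbeta, at -0.92 and -0.81, and higher against vector, by 0.70 and 0.82. The RAB27B sets 207018_s_at and 207017_at gave -1.10 and -0.89 with TGFbeta on the vector pair and -0.77 and -0.80 on the DLC1-labelled pair. Against vector they gave 0.21 and 0.49 without TGFbeta and 0.54 and 0.58 with it. In representing sets, none of this list passed 2-fold downward. Medians over the list were 0.07, 0.02, 0.23 and 0.03 in the order given above.

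Of 33 other myosin and formin genes 31 were measured and 12 kept. MYH3, an embryonic muscle heavy chain, rose against vector without TGFbeta, from 0.57 to 1.16, and was higher by 0.80 with it. MYL9, the regulatory light chain of smooth muscle, read 0.76 and 1.2 on the vector pair and 0.85 and 0.84 on the DLC1-labelled pair, while its set 244149_at moved by -0.03 in each. The muscle heavy chains MYH1, MYH2, MYH4, MYH6, MYH7 and MYH8 were below the filter. The medians of this list were -0.08, -0.05, 0.09 and 0.17, with no gene past 2-fold downward.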

How the data were processed

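Messenger RNA of 4 samples was measured on 1 oligonucleotide array each. The authors deposited linear intensity values, given to 2 decimals, for 54675 probe sets. RMA is named in the submitters' processing notes, with neither version nor settings. The array medians are 0.38 to 0.39. The number of arrays limits the precision. Rounding shifts no kept member's log2 difference by more than 0.03.

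Log2 was taken of the deposited values. Of the probe sets, 41097 have exactly 1 symbol in the platform annotation and give 19775 genes, of which 13137 were kept. Differences were taken between single arrays, with no test, and called at 2-fold. Values are given for members past 1.5-fold in any difference and for MYH9, MYL12A, MYL12B, MYL6, MYLK, DIAPH1 and MYO10, and the others by range; MYO5A, MYO19, MYH14, DIAPH2, FMNL1 and FMNL2 are given too, chosen after their values were seen; up to 6 genes of each further list could be named. The members and lists were chosen with earlier results of these data known. Alternatives were other probe set rules, filters and scalings. Python 3.11.15, numpy 2.4.6 and pandas 2.3.3 were used, with limma 3.58.1 in R 4.3.3 for cyclic loess.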

Additional observations from a re-analysis of the deposited data

How the results depend on the processing

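No paired analysis was possible because each group has 1 array. There were 7 alternatives and 1 added after seeing the data, and the one that counts probe sets gives no value for a gene. Over the rest, 334 of 356 values of 13 genes followed stayed on their side of 2-fold and 22 fell short of it. The 334 include values that could not change. Changing only the filter, or raising low values to the median, moves no followed gene, since every kept member read at least 0.49. Of the 356 values 12 changed sign, each 0.16 or less in size as reported, and 0 of those past 2-fold did. Leaving out an array was not possible with 1 a group. The cause of each change below was not tested. With the mean of all probe sets of a gene, dim ones included, 1 of 28 members, or 3.57%, rose with TGFbeta in each background (0.996% and 0.591% of all genes), 1 fell against vector without TGFbeta (1.42% of all genes) and 2, or 7.14%, with it (1.22%), and the median without TGFbeta was -0.09. It was also -0.09 with no filter. With the mean of the kept sets only, the added alternative, 1 member, or 3.23%, rose with TGFbeta on the DLC1-labelled pair (0.647% of all genes) and 1 fell against vector without TGFbeta (1.91%). With arrays centred on 11 housekeeping genes, 1 member rose with TGFbeta in each background (0.959% and 0.487% of all genes), 3 fell against vector without TGFbeta (1.86%), and the median with TGFbeta on the DLC1-labelled pair was -0.13. Over all genes this centring changed the share of higher among the called from 63.6% to 50.4% and from 88.1% to 64.0% with TGFbeta in the vector and DLC1-labelled arrays, and from 41.1% to 52.7% against vector without TGFbeta. Of 67 kept member probe sets, 7 and 6, or 10.4% and 8.96%, rose with TGFbeta (304 and 178 of all 24399 kept sets), and 10, or 14.9%, fell against vector with it (1.53%). Sets of the same gene are not separate members. All sets that rose are of MYO10 and DAAM1, and those that fell are of MYO10, DAAM1, FMNL3, DIAPH3 and MYH10. Of the FMNL3 sets among them, 227844_at and 238823_at passed the filter through vector arrays alone. The other 89 of 104 medians and counts moved by less than 0.1 or 1.5 times.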

Other observations

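The probe set 202039_at, which the annotation gives to both MYO18A and TIAF1, read 1.15 in the vector array and 0.53 with TGFbeta, and 1.08 and 0.70 on the DLC1-labelled pair. The differences with TGFbeta were -1.12 and -0.63, and those against vector -0.09 and 0.40. The set cannot say which of the 2 genes it measured. Of the class VII myosin MYO7A, a motor of sensory hair cells, all 4 probe sets stayed between 0.13 and 0.35.

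RAB27A, whose product links melanosomes and other vesicles to MYO5A, read 12.17 and 7.33 on the vector pair and 9.03 and 7.50 on the DLC1-labelled pair. The difference with TGFbeta was -0.73 on the vector pair and -0.27 on the DLC1-labelled pair. Its 4 further kept sets gave between -0.55 and -0.96 on the vector pair and between -0.17 and -0.46 on the DLC1-labelled pair. Of the class V myosin genes, with TGFbeta, MYO5A was at 0.07 and 0.10, MYO5B at -0.53 and 0.05, and MYO5C at -0.17 and 0.06.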
